A study of Rattus norvegicus with 12 samples.

Results

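Solute carriers are membrane proteins that move amino acids, sugars, ions, nucleosides and other small molecules into and out of cells and organelles. They matter for the mammalian target of rapamycin (mTOR) because amino acids, leucine above all, signal to mTOR complex 1, and several of the carriers that bring amino acids in are in turn controlled by growth signals. Rapamycin inhibits that complex, and c-Myc, a transcription factor that promotes growth, is known to raise the expression of several nutrient carriers.

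The genes described here are the solute carriers among the gene features that the authors listed as changed by rapamycin in rat fibroblasts. A feature entered when its symbol began with Slc or when its description contained the words solute carrier, which gave 20 features of 19 genes. They were 19 of the 1710 genes, and 20 of the 1734 features, named in the deposited tables, on an array of 22523 features. All 20 features were detected on all 12 arrays and were tested. Because membership rests on those tables, 7 of the genes were listed for both cell lines, 6 for TGR-1 cells alone and 6 for HO15.19 cells alone. Presence in a table and absence from it both came from the rapamycin comparisons on these arrays, so the rapamycin change of a gene in either line is a description and not a test. A test is given for the level in HO15.19 against TGR-1 cells averaged over both treatments, a difference that the listing did not use. Its standard error rests on the spread within groups of the same arrays, which the listing did use. Any effect of that on its p-values was not tested. The level with DMSO alone rests on control arrays that the listing used, and is a description. The difference between the rapamycin changes of the lines is fitted with the limit named there.

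HO15.19 is a c-Myc-/- line made from TGR-1 cells by homologous recombination, and TGR-1 is its c-Myc+/+ parent, an hrpt- subclone of the Rat-1 embryonic fibroblast line. Each line was exposed to 50 nM rapamycin or to its DMSO vehicle, called control here, for 24 hr, with 3 arrays in each of the 4 groups, described in the methods as independent biological replicates. Each genotype is 1 line, the labels give HO15.19 cells the longer doubling time, and more HO15.19 than TGR-1 cells were plated, so that genotype, line, growth rate and plating cannot be told apart. All cells came from cultured fibroblasts, and a lower transcript level in every cell cannot be told apart in total RNA from fewer cells that express the gene.

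The arrays had a mean raw signal of 255 to 405 and detected 9605 to 10472 features, and both ends of the signal range were HO15.19 rapamycin arrays. Levels are given as log2 intensity after background correction and quantile normalization of the deposited bead signals, and levels of different genes are not set against each other because each rests on its own probe. Myc, the targeted gene, was detected on all 12 arrays and read 7.69 to 8.19 on the HO15.19 arrays and 8.97 to 9.76 on the TGR-1 arrays, a difference of -1.36 (limma, adjusted p = 5.77e-10), and where its probe lies relative to the inactivated part of the gene was not examined. Of 10 fibroblast markers, the 4 with a named probe were Col1a1, Col3a1 and Fn1, detected on all 12 arrays, and Lum, detected on the 6 HO15.19 arrays and on 0 of the 6 TGR-1 arrays. The leukocyte gene Cd14, the only 1 of 4 leukocyte markers with a named probe, was detected on all 12 arrays and read 7.46 to 8.02 with rapamycin and 7.23 to 7.32 in control in HO15.19 cells, and 7.16 to 7.43 with rapamycin and 6.91 to 7.18 in control in TGR-1 cells. Its part in the results was not tested, and no epithelial, endothelial or muscle marker had a named probe. Only features listed as changed by rapamycin carry names here. Markers without a named probe were therefore not examined, and they may still be on the array.

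By substrate, 6 of the 19 genes encode carriers of amino acids or peptides, 5 belong to the mitochondrial family, 3 carry metals or inorganic ions and 5 carry other organic substrates. None belongs to the sugar families fixed for the grouping. Promoter windows from RefSeq (GRCr8, 250 bases before to 50 bases after the start of the gene) were found for 16 of the 19 genes, and not for Slc20a2, Slc25a5-ps5 or RGD1561141. They were searched on both strands for the canonical E-box CACGTG, the sequence bound by c-Myc with its partner Max, and for the amino acid response element TGATGNAAN, the sequence bound by ATF4 with a C/EBP partner. No match of either motif overlapped a match of the other. The E-box occurred in 2 of the 16 genes and in 6.42% of all 33469 windows, and the response element in 1 of the 16 and in 3.97% of all windows. The 3 stretches with a match are shown because they belong to the leucine carrier, the lactate carrier and the cationic amino acid carrier described below, with the motif in capitals.
Slc7a5, chr19:66872556-66872621, minus strand, E-box from -179 to -174: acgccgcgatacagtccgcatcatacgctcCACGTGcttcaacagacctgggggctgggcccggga
Slc16a1, chr2:194812414-194812479, plus strand, E-box from -216 to -211: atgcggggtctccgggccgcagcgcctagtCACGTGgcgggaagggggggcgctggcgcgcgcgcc
Slc7a1, chr12:11664428-11664487, plus strand, response element from -30 to -22: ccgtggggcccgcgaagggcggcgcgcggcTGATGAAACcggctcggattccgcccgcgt
A match is a description of the sequence, and the absence of a match says only that these letters do not occur in that window.

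Changes were fitted with limma over the 12 arrays and 10852 tested features. A call needed 3 things: a p under 0.05 after Benjamini-Hochberg adjustment over those features, a raw p no higher than 0.01, and a change of 1.2-fold or more. In HO15.19 cells, rapamycin left 1 of the 19 genes higher, Slc35d2, and 4 lower, Slc7a5, Slc3a2, Slc6a9 and Slc5a3, and 14 were not called. Over all tested features, 2.51% were called higher and 2.64% lower in that line. In TGR-1 cells, 1 of the 19 was higher, Slc22a5, and 1 lower, Slc7a5, and 17 were not called, beside 2.52% of all features called higher and 1.45% called lower. The genes were chosen on these same comparisons, so nothing is read from the counts against the background. With 1 array left out, 3 to 6 of the 19 were called in HO15.19 cells (3 without HO15.19 control replicate 1) and 0 to 4 in TGR-1 cells (0 without TGR-1 control replicate 2 or TGR-1 rapamycin replicate 2 or 3, 1 without TGR-1 control or rapamycin replicate 1, and 4 without TGR-1 control replicate 3). The median change of the 19 genes was -0.26 in HO15.19 cells and -0.22 in TGR-1 cells, where the median of all tested features was 0 in each.

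**Figure D1:**
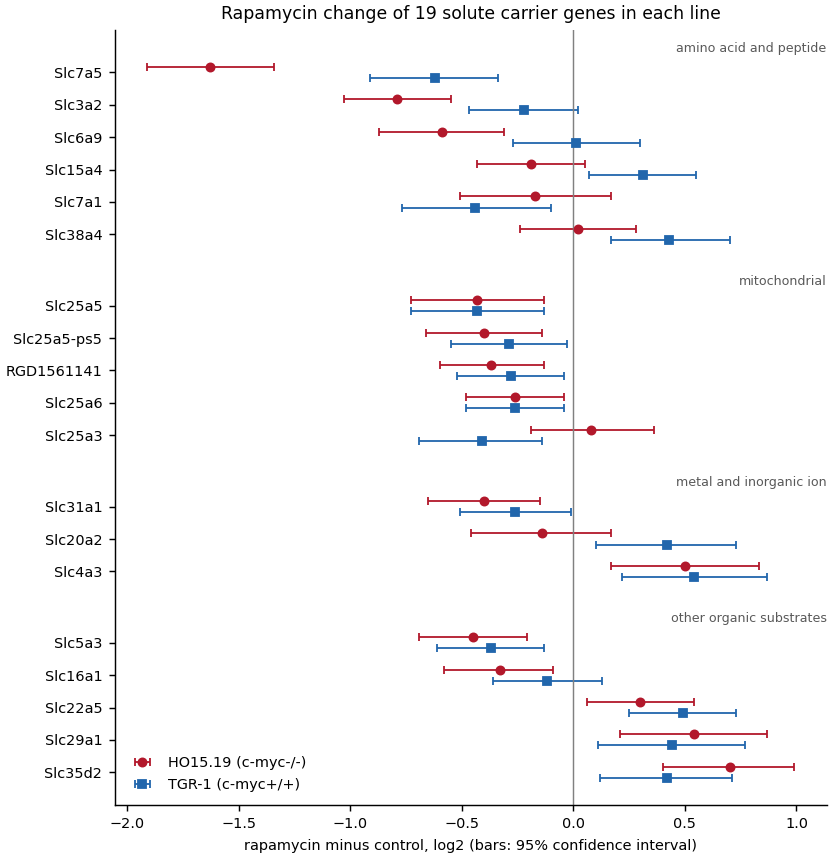
Rapamycin minus control on the log2 scale for the 19 genes, by substrate group, in HO15.19 cells (circles) and TGR-1 cells (squares), with 95% confidence intervals from the limma fit over 12 arrays. The change in Slc7a5 was -1.63 in HO15.19 cells and -0.62 in TGR-1 cells, while Slc35d2 stood at 0.70 in HO15.19 cells and 0.42 in TGR-1 cells.

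In HO15.19 cells the 2 largest rapamycin changes among the 19 genes belonged to amino acid carriers. In TGR-1 cells the largest belonged to 1 of them, Slc7a5, and the next to the ion carrier Slc4a3, at 0.54. Slc7a5 encodes LAT1, the light chain of the exchanger that brings leucine and other large neutral amino acids into the cell. In HO15.19 cells it read 7.42, 7.46 and 7.26 with rapamycin, against 8.84, 9.17 and 9.02 in control. In TGR-1 cells it read 9.22, 9.16 and 9.02 with rapamycin, against 9.72, 10.03 and 9.52 in control. In both lines every rapamycin array was below every control array, and the HO15.19 rapamycin arrays were the lowest of the 12, more than 1 log2 unit below any other. The change was -1.63 ± 0.14 (SE), or 3.09-fold lower, in HO15.19 cells and -0.62 ± 0.14, or 1.54-fold lower, in TGR-1 cells. The call in TGR-1 cells was lost without TGR-1 control replicate 2 (-0.49), without TGR-1 rapamycin replicate 2 (-0.64) and without TGR-1 rapamycin replicate 3 (-0.56), and the call in HO15.19 cells was kept whichever array was left out.

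Slc3a2 encodes the heavy chain (CD98, 4F2hc) that binds LAT1 and carries it to the cell surface. In HO15.19 cells it read 10.77, 10.82 and 10.72 with rapamycin, against 11.48, 11.45 and 11.74 in control, and the groups did not overlap. The change there was -0.79 ± 0.12 (SE), or 1.73-fold lower, and the call was kept whichever array was left out. In TGR-1 cells Slc3a2 read 11.19, 11.16 and 11.10 with rapamycin, against 11.39, 11.52 and 11.21 in control. The TGR-1 groups did not overlap either; the gene was not listed for TGR-1 cells, and its change there was -0.22 ± 0.12 (SE) and not called. Both chains of the leucine exchanger were thus lower with rapamycin on all HO15.19 arrays, by unequal amounts.

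Slc6a9 encodes the glycine carrier GlyT1. It read 5.95, 5.56 and 5.67 with rapamycin in HO15.19 cells, against 6.56, 6.24 and 6.15 in control, and 6.76, 6.67 and 6.99 with rapamycin in TGR-1 cells, against 6.77, 6.81 and 6.81 in control. The HO15.19 groups did not overlap and the TGR-1 groups did. The change was -0.59 ± 0.13 (SE) in HO15.19 cells, and in TGR-1 cells, where the gene was not listed, 0.01 ± 0.13 (SE). The HO15.19 call was lost without HO15.19 control replicate 1 (-0.47) and without HO15.19 rapamycin replicate 2 (-0.51), and also with median centring and with the spread of the line's own arrays (-0.59 in each). Without background correction and with the authors' normalized values the change was -0.32 and still called.

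Slc7a1 encodes CAT-1, which takes up arginine, lysine and ornithine, and its window holds the response element shown above. In TGR-1 cells, which listed it, it read 6.34, 5.88 and 6.32 with rapamycin, against 6.52, 6.83 and 6.49 in control, a change of -0.44 ± 0.16 (SE) that was not called. That change was -0.28 without TGR-1 rapamycin replicate 2, and -0.26 without background correction and with the authors' normalized values. In HO15.19 cells it read 5.16, 5.66 and 5.53 with rapamycin, against 5.44, 5.58 and 5.83 in control, and these groups overlapped. The change there was -0.17 ± 0.16 (SE). The remaining members of the group were not called in either line. The system A carrier Slc38a4, for neutral amino acids, had changes of 0.02 in HO15.19 cells and 0.43 in TGR-1 cells, and the TGR-1 change was called when HO15.19 rapamycin replicate 1 or 2 was left out of the shared fit (adjusted p = 0.0422 and 0.0343). Slc15a4, a lysosomal carrier of histidine and small peptides, had -0.19 in HO15.19 cells and 0.31 in TGR-1 cells. Over the 6 genes, 3 were called lower and 0 higher in HO15.19 cells, with 5 of 6 changes negative and a median of -0.39. In TGR-1 cells 1 was called lower and 0 higher, with 3 changes of each sign and a median of -0.11. Among all tested features, 2.64% were called lower and 2.51% higher in HO15.19 cells, and 1.45% lower and 2.52% higher in TGR-1 cells. These 6 genes were chosen on the same comparisons, so nothing is read from their counts.

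**Figure D2:**
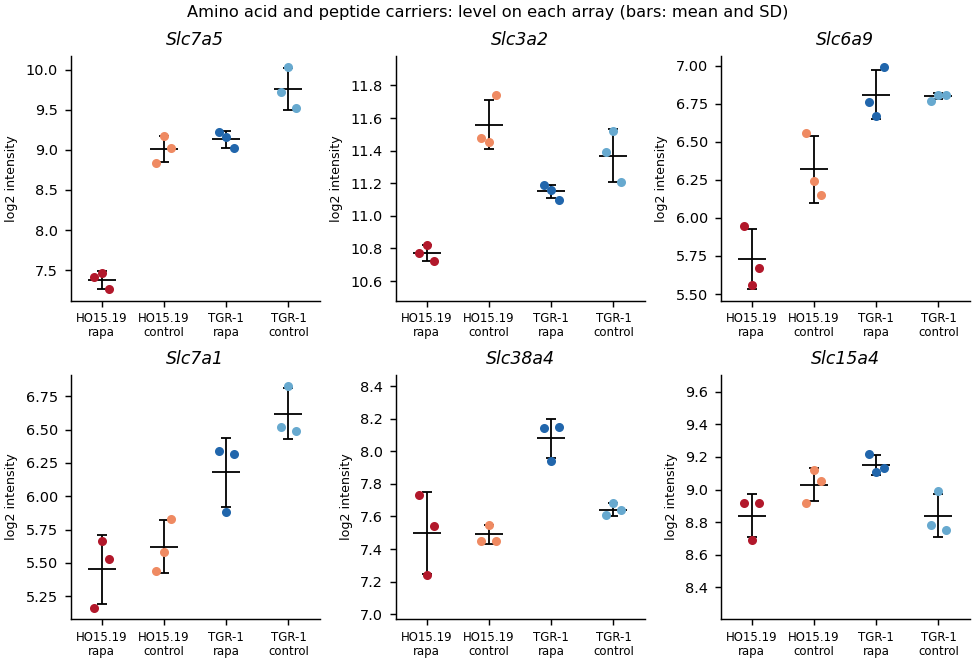
Log2 intensity of the 6 amino acid and peptide carriers on each array (points), with the mean and SD of each group of 3 (bars). From left to right each panel shows HO15.19 rapamycin, HO15.19 control, TGR-1 rapamycin and TGR-1 control; the 3 HO15.19 rapamycin arrays read 7.26 to 7.46 for Slc7a5, where the other 9 read 8.84 to 10.03.

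The carriers of the mitochondrial Slc25 family had smaller changes, and none of the 5 genes was called in either line. The inner membrane carriers Slc25a5 and Slc25a6 exchange ADP for ATP, and Slc25a3 brings in phosphate for ATP synthesis. Slc25a5 read 10.69, 11.06 and 10.69 with rapamycin in HO15.19 cells, against 11.21, 11.29 and 11.23 in control, and 11.50, 11.62 and 11.29 with rapamycin in TGR-1 cells, against 12.08, 12.01 and 11.62 in control. The change was -0.43 ± 0.14 (SE) in each line. The HO15.19 groups did not overlap, and in TGR-1 cells 1 rapamycin array and 1 control array lay at the same 11.62. It was called in HO15.19 cells without HO15.19 rapamycin replicate 2 (-0.55) and in TGR-1 cells without TGR-1 control replicate 3 (-0.57).

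For Slc25a3 the changes had opposite signs in the lines. In TGR-1 cells, which listed it, it read 11.68, 11.91 and 11.80 with rapamycin, against 12.37, 12.29 and 11.97 in control, with no overlap and a change of -0.41 ± 0.13 (SE) that was called without TGR-1 control replicate 3 (-0.53). In HO15.19 cells it read 11.64, 11.82 and 11.54 with rapamycin, against 11.68, 11.43 and 11.64 in control, with overlap and a change of 0.08 ± 0.13 (SE). Among the 5 genes it was the only 1 with a positive change in HO15.19 cells.

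Slc25a5-ps5, listed under an older identifier and annotated as a pseudogene of Slc25a5, read 9.88, 9.62 and 9.75 with rapamycin in HO15.19 cells, against 10.16, 9.98 and 10.31 in control, and 10.50, 10.42 and 10.49 with rapamycin in TGR-1 cells, against 10.56, 10.88 and 10.84 in control. Neither line's groups overlapped, and the changes were -0.40 ± 0.12 in HO15.19 cells and -0.29 ± 0.12 in TGR-1 cells (SE). Its sequence is close to that of Slc25a5, and so is that of Slc25a6, so the signals of these 3 probes may hold transcripts of one another and are uncertain as measures of single genes. RGD1561141, listed as similar to Slc25a12, read 8.58, 8.36 and 8.43 with rapamycin in HO15.19 cells, against 8.92, 8.91 and 8.64 in control. In TGR-1 cells, which did not list it, it read 8.72, 8.70 and 8.80 with rapamycin, against 8.97, 9.02 and 9.07 in control. Groups were apart in both lines, with changes of -0.37 ± 0.11 in HO15.19 cells and -0.28 ± 0.11 in TGR-1 cells (SE), neither of them called. The HO15.19 change was called without HO15.19 control replicate 3 (-0.46).

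Slc25a6 had 2 probes. The brighter one, used for the counts, changed by -0.26 ± 0.10 (SE) in each line and was not called. The dimmer one changed by -0.48 ± 0.13 in HO15.19 cells, where it was called, and by -0.43 ± 0.13 in TGR-1 cells (SE), where it was not. Over the 5 genes, 4 of 5 changes were negative in HO15.19 cells, with a median of -0.37, and 5 of 5 in TGR-1 cells, with a median of -0.29.

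Of the carriers of metals and inorganic ions, the anion exchanger Slc4a3 (AE3), which swaps chloride for bicarbonate, was the only 1 with positive changes in both lines. It read 7.20, 7.23 and 7.03 with rapamycin in HO15.19 cells, against 6.83, 6.87 and 6.26 in control, and 5.81, 6.07 and 6.14 with rapamycin in TGR-1 cells, against 5.66, 5.38 and 5.35 in control. Neither line's groups overlapped, and the changes were 0.50 ± 0.16 in HO15.19 cells and 0.54 ± 0.16 in TGR-1 cells (SE), neither of them called. The TGR-1 change was called when HO15.19 control replicate 3 was left out of the shared fit, and without that array the HO15.19 change was 0.30. Without background correction and with the authors' normalized values the TGR-1 change was 0.27.

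The copper importer Slc31a1 (CTR1) read 7.23, 7.18 and 7.49 with rapamycin in HO15.19 cells, against 7.67, 7.75 and 7.68 in control, a change of -0.40 ± 0.12 (SE) that was called without HO15.19 rapamycin replicate 3 (-0.50). In TGR-1 cells, which did not list it, it read 7.97, 8.0 and 7.85 with rapamycin, against 8.10, 8.12 and 8.39 in control. All 3 rapamycin arrays were below the control arrays in each line, and the TGR-1 change of -0.26 ± 0.12 (SE) was not called. The sodium-dependent phosphate carrier Slc20a2 (PiT-2), listed for TGR-1 cells alone, read 9.49, 9.62 and 9.46 with rapamycin there, against 9.27, 8.89 and 9.16 in control, a change of 0.42 ± 0.15 (SE). In HO15.19 cells it read 10.28, 10.01 and 9.62 with rapamycin, against 10.04, 10.21 and 10.09 in control, and the rapamycin arrays lay on both sides of the control arrays. The HO15.19 change was -0.14 ± 0.15 (SE).

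Among the carriers of other organic substrates, 3 of 5 had positive and 2 negative changes in each line. Slc35d2, a Golgi carrier of nucleotide sugars, read 8.38, 7.92 and 8.02 with rapamycin in HO15.19 cells, against 7.44, 7.51 and 7.27 in control, and 6.27, 5.92 and 6.22 with rapamycin in TGR-1 cells, against 5.58, 5.86 and 5.71 in control. All rapamycin arrays were above the control arrays of their line. The change was 0.70 ± 0.14 (SE), or 1.62-fold, in HO15.19 cells, and this call was kept whichever array was left out. It was 0.56 without background correction and 0.57 with the authors' normalized values, and called in each. In TGR-1 cells, which did not list it, the change was 0.42 ± 0.14 (SE) and not called.

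The nucleoside carrier Slc29a1 (ENT1) read 9.66, 9.33 and 10.03 with rapamycin in HO15.19 cells, against 9.19, 9.15 and 9.06 in control, and 8.69, 8.45 and 8.82 with rapamycin in TGR-1 cells, against 8.0, 8.27 and 8.37 in control. Rapamycin arrays were the higher ones in each line, with the widest spread among the HO15.19 rapamycin arrays, and the changes were 0.54 ± 0.16 in HO15.19 cells and 0.44 ± 0.16 in TGR-1 cells (SE), neither called. The HO15.19 change was 0.71 and called without HO15.19 rapamycin replicate 2, and 0.36 and not called without HO15.19 rapamycin replicate 3.

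Slc22a5 (OCTN2), which takes up carnitine for fatty acid oxidation, was called in TGR-1 cells, where it read 7.61, 7.63 and 7.68 with rapamycin, against 7.19, 7.07 and 7.19 in control, a change of 0.49 ± 0.11 (SE), or 1.40-fold. In HO15.19 cells, which did not list it, it read 7.90, 8.0 and 8.28 with rapamycin, against 7.75, 7.76 and 7.77 in control. No groups overlapped, and the HO15.19 change of 0.30 ± 0.11 (SE) was not called. The TGR-1 call was lost without TGR-1 control replicate 1 (0.51) or 2 (0.45) and without TGR-1 rapamycin replicate 1 (0.51), 2 (0.49) or 3 (0.47).

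Slc5a3, which takes up myo-inositol together with sodium, read 8.14, 7.84 and 8.11 with rapamycin in HO15.19 cells, against 8.56, 8.41 and 8.48 in control, and 8.36, 8.55 and 8.53 with rapamycin in TGR-1 cells, against 8.83, 8.92 and 8.79 in control. Groups were apart in each line, and the changes were -0.45 ± 0.11 in HO15.19 cells, where it was called, and -0.37 ± 0.11 in TGR-1 cells (SE), where it was not. The HO15.19 call was lost without HO15.19 control replicate 1 (-0.41), 2 (-0.49) or 3 (-0.45) and without HO15.19 rapamycin replicate 2 (-0.36). That call was also lost with median centring and with the spread of the line's own arrays (-0.45 in each). Slc16a1 (MCT1), which carries lactate and pyruvate and has the second E-box shown above, changed by -0.33 ± 0.12 (SE) in HO15.19 cells, where it was listed but not called, and by -0.12 ± 0.12 in TGR-1 cells (SE).

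**Figure D3:**
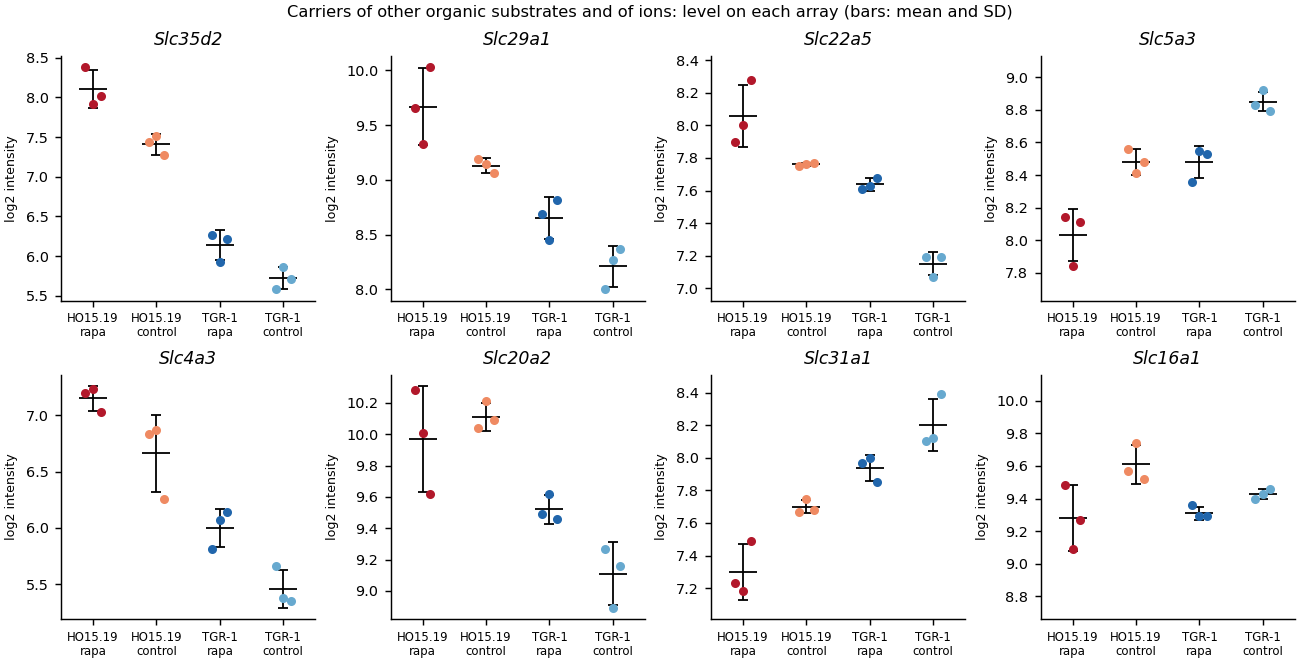
Log2 intensity of the 5 carriers of other organic substrates and the 3 carriers of ions on each array (points), with the mean and SD of each group of 3 (bars), in the order HO15.19 rapamycin, HO15.19 control, TGR-1 rapamycin and TGR-1 control. For Slc35d2 the HO15.19 arrays read 7.27 to 8.38 and the TGR-1 arrays 5.58 to 6.27.

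The 12 genes listed for 1 line alone were absent from the other line's table on that line's own arrays, so a small change there is a condition of the choice and no test of whether they changed. In the line that did not list them, 0 of the 12 were called by limma. The called shares of all features were 2.51% higher and 2.64% lower in HO15.19 cells, and 2.52% higher and 1.45% lower in TGR-1 cells. An unadjusted p under 0.05 was found for 1 of 6 in HO15.19 cells, Slc22a5, where 18.6% of all features had one, and for 3 of 6 in TGR-1 cells, Slc35d2, RGD1561141 and Slc31a1, where 17.6% had one. The change had the same sign in both lines for 8 of the 12 genes, and the other 4 were Slc15a4, Slc20a2, Slc25a3 and Slc6a9. How many of all features had the same sign in both lines was not examined, so nothing is read from that count.

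The difference between the rapamycin changes of the lines was then fitted directly. None of the 19 genes was called by limma, where 0.111% of all features were called. An unadjusted p under 0.05 was found for 7 of the 19 and for 9.74% of all features. Listing in 1 table alone favours such a difference, which touches Slc3a2, Slc6a9, Slc15a4, Slc20a2, Slc25a3 and Slc38a4 among the 7. Slc7a5 was listed for both lines, on the same rapamycin changes that make up this difference. Its p-value is therefore no independent test either. Its rapamycin change in HO15.19 cells minus that in TGR-1 cells was -1.0 ± 0.19 (SE), with a 95% confidence interval of the difference from -1.41 to -0.60 and an unadjusted p of 7.02e-05, and it missed the threshold after adjustment (limma, adjusted p = 0.0586). It passed without TGR-1 control replicate 2 (-1.14, adjusted p = 0.0339) and in 4 of the other alternatives. The next differences were -0.60 ± 0.19 for Slc6a9 (adjusted p = 0.275) and -0.57 ± 0.16 for Slc3a2 (adjusted p = 0.227), and at the other end Slc25a3 stood at 0.49 ± 0.18 (adjusted p = 0.367, SE, limma). For Slc25a5 and Slc25a6 the difference was 0.00, with intervals from -0.42 to 0.42 and from -0.31 to 0.31.

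The level of the carriers was then compared between the lines. Averaged over both treatments, 5 of the 19 genes were called higher and 10 lower in HO15.19 than in TGR-1 cells, and 4 were not called. Over all tested features 19.5% were called higher and 20.7% lower in this comparison, so differences between the lines were common throughout the array. RGD1561141 was called as well when HO15.19 control or rapamycin replicate 1 was left out. All 15 calls were kept whichever array was left out and under each other setting in which this comparison was run. With median centring 17 were called, with Slc3a2 and RGD1561141 added to the lower genes.

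Slc35d2 had the largest difference of the 19 genes, at 1.83 ± 0.10 (SE), or 3.55-fold higher in HO15.19 cells (limma, adjusted p = 1.5e-10), followed by Slc4a3 at 1.17 ± 0.11, or 2.25-fold (adjusted p = 1.39e-07; 0.70 without background correction and with the authors' normalized values), and Slc29a1 at 0.97 ± 0.11, or 1.96-fold (adjusted p = 1.53e-06). As the levels above show, all 6 HO15.19 arrays were above all 6 TGR-1 arrays for each of these. Slc20a2 was higher by 0.73 ± 0.11 (adjusted p = 2.13e-05), with the lowest HO15.19 array and the highest TGR-1 array both at 9.62, and Slc22a5 by 0.51 ± 0.08 (adjusted p = 4.05e-05, SE, limma). With DMSO alone the differences of these 5 genes were 1.69, 1.19, 0.92, 1.01 and 0.61 in the same order. The values with DMSO alone rest on control arrays that the listing used, so they are a description and not a test.

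Averaged over both treatments, Slc7a5 was lowest of the 19 genes, at -1.25 ± 0.10 (SE), or 2.38-fold lower in HO15.19 cells (limma, adjusted p = 1.29e-08). Its HO15.19 control arrays at 8.84 to 9.17 overlapped the TGR-1 rapamycin arrays at 9.02 to 9.22. With DMSO alone its difference was -0.75 ± 0.14 (SE), and that of Slc7a1 was lower still, at -1.0 ± 0.16 (SE). Over both treatments Slc7a1 stood at -0.86 ± 0.11 (adjusted p = 7.18e-06) and Slc6a9 at -0.78 ± 0.10 (SE, limma, adjusted p = 3.05e-06), and each at -0.47 without background correction and with the authors' normalized values. Slc25a5 stood at -0.66 ± 0.10 (adjusted p = 3.5e-05) and Slc25a5-ps5 at -0.66 ± 0.09 (SE, limma, adjusted p = 7.19e-06). The other genes called lower were Slc31a1, Slc25a6, Slc5a3, Slc25a3 and Slc38a4, between -0.57 and -0.36. Slc38a4 was not called with DMSO alone, at -0.16 ± 0.12 (SE).

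The heavy chain gene of the leucine exchanger was not called in this comparison, except with median centring. Slc3a2 differed by -0.10 ± 0.08 (SE, limma, adjusted p = 0.336), with a 95% confidence interval from -0.27 to 0.07, and the intervals of Slc3a2 and Slc7a5 (-1.45 to -1.05) did not meet. Slc16a1 (0.07), Slc15a4 (-0.06) and RGD1561141 (-0.24) were also not called. By substrate, 4 of 6 amino acid and peptide carriers and 4 of 5 mitochondrial genes were called lower in HO15.19 cells and none higher. Their medians were -0.57 and -0.55, and 20.7% of all tested features were called lower and 19.5% higher. The mitochondrial count includes Slc25a5, Slc25a5-ps5 and Slc25a6, whose probes may hold transcripts of one another. With DMSO alone 3 of the 6 amino acid and peptide carriers were called lower, and 2 had positive differences, Slc15a4 (0.19) and Slc3a2 (0.18). Of all 10852 tested features, 1708 were called lower and 1700 higher with DMSO alone. Averaged over both treatments, 3 carriers of other organic substrates were called higher and 1 lower, with a median of 0.51. Of the ion carriers 2 were called higher and 1 lower, with a median of 0.73. Over all tested features the median was -0.01, and over the 19 genes -0.36.

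**Figure D4:**
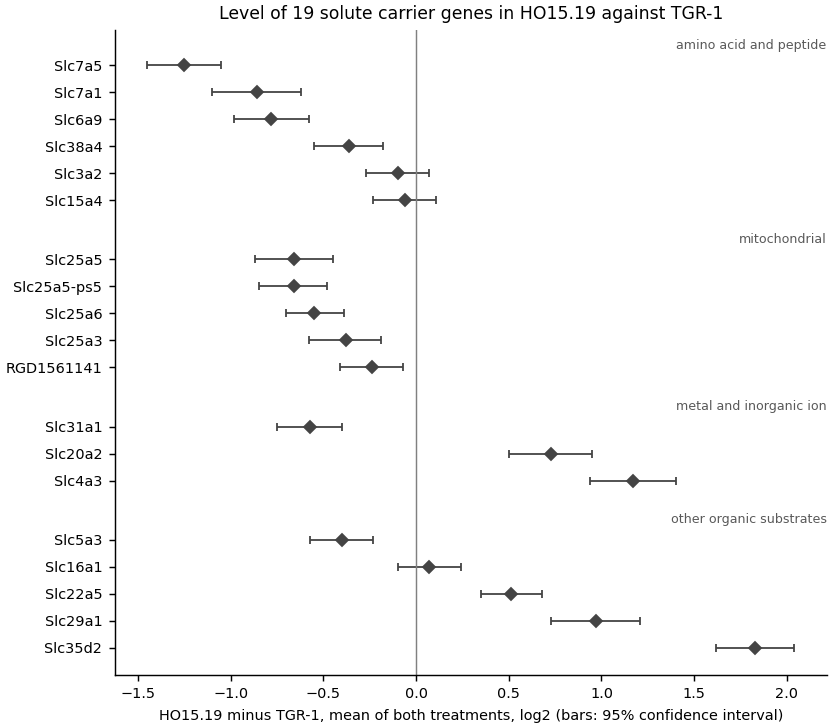
HO15.19 minus TGR-1, averaged over rapamycin and control, on the log2 scale for the 19 genes by substrate group, with 95% confidence intervals from the limma fit over 12 arrays. In this average all 6 amino acid and peptide carriers and all 5 mitochondrial genes lie below 0, and Slc35d2 lies farthest above, at 1.83. The intervals of Slc3a2 and Slc15a4 span 0, and both genes were positive with DMSO alone. The probes of Slc25a5, Slc25a5-ps5 and Slc25a6 may hold transcripts of one another.

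The carriers were set beside the other named genes that share their setting, which were likewise named only because they were listed as changed by rapamycin on these arrays, so that their direction is not independent evidence. The amino acid response genes are switched on by ATF4 when amino acids are short and include enzymes of serine and asparagine synthesis and tRNA synthetases. Genes of this group that were not listed as changed by rapamycin were left out. Of the 22 named, 17 were called lower and 0 higher with rapamycin in HO15.19 cells. All 22 changes were negative there and their median was -0.83. In TGR-1 cells 12 were called lower and 0 higher, with 20 of 22 changes negative and a median of -0.53. Over all tested features, 2.51% were called higher and 2.64% lower in HO15.19 cells, and 2.52% higher and 1.45% lower in TGR-1 cells. The genes were chosen on these same comparisons, so nothing is read from their counts. The asparagine synthetase gene Asns changed by -1.32 in HO15.19 cells and -0.86 in TGR-1 cells, and Phgdh, the first enzyme of serine synthesis, by -2.16 in HO15.19 cells and -1.5 in TGR-1 cells. Atf4 itself was called in HO15.19 cells, at -0.69, and not in TGR-1 cells, at -0.06.

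The same choice and the same shares over all features hold for the next 2 groups. Of 9 glycolytic genes so named, 6 were called lower in HO15.19 cells, among them Tpi1 at -0.65. In TGR-1 cells 5 were called lower, among them Pfkl at -0.83, and 0 were higher in either line. Of 7 other membrane transporters and channels so named, 2 were called higher and 0 lower in HO15.19 cells, and 2 higher and 1 lower in TGR-1 cells. The potassium channel gene Kcnk2 (0.77 in HO15.19 cells and 0.82 in TGR-1 cells) and the magnesium channel gene Trpm6 (0.69 in HO15.19 cells and 0.84 in TGR-1 cells) were the 2 that rose in both, and Abce1, a ribosome recycling factor named with the ABC transporters, fell by 0.59 in TGR-1 cells.

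**Figure D5:**
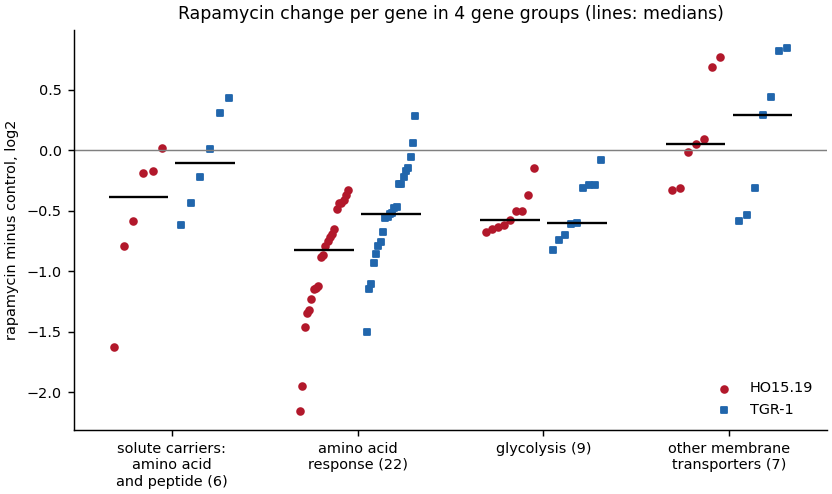
Rapamycin minus control on the log2 scale per gene (points) with medians (lines), in HO15.19 cells (circles) and TGR-1 cells (squares), for the 6 amino acid and peptide carriers and the 3 other groups of named genes. The medians of the carriers were -0.39 in HO15.19 cells and -0.11 in TGR-1 cells, and those of the amino acid response genes -0.83 in HO15.19 cells and -0.53 in TGR-1 cells.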

How the data were processed

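The intensities deposited by the authors are mean bead signals from BeadStudio before normalization, with detection p-values deposited beside them; a further deposited table holds intensities after the authors' quantile normalization. The fold changes and adjusted p-values of the authors' comparison tables (Partek 6.3) were not used, and only the names and the presence of features in those tables were. Names were updated through Entrez identifiers (1551 features) or accessions (2) and kept as listed for 181. The neqc function of limma 3.58.1 (R 4.3.3) was run on the signals with their detection p-values for background correction and quantile normalization, giving log2 values (offset 16). The 10852 features detected at p under 0.05 on 3 or more arrays were tested with lmFit and eBayes (8 residual and 8.72 prior degrees of freedom), two-sided, with 4 group means and no covariate. A gene was represented by its brightest probe. The fit was tested on simulated data. Alternatives covered the filter, background correction, normalization, the authors' normalized values, array weights, the line's own spread, the methods' t-test, all probes counted, a replicate block and each array left out.

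The members, gene lists, motifs and tests were chosen with earlier results of these data known. Values on each array were given for members called at 1.5-fold or more and for up to 4 per substrate group with the largest rapamycin change, and between the lines for those at 2-fold or among the 5 largest in each direction; other members were named where a count, a motif or an overlap needed them. Probe sequences, chip positions and scan batches were not analysed here. The number of arrays limits the precision.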

Additional observations from a re-analysis of the deposited data

Results flagged for a closer look

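Slc15a4, the lysosomal carrier of histidine and small peptides, had rapamycin changes of opposite sign in the lines. In HO15.19 cells it read 8.92, 8.69 and 8.92 with rapamycin, against 8.92, 9.12 and 9.05 in control, with the rapamycin arrays below the control arrays by less than the rounding of these values at the nearest pair. In TGR-1 cells it read 9.22, 9.11 and 9.13 with rapamycin, against 8.78, 8.99 and 8.75 in control, with all rapamycin arrays above. The rapamycin change in HO15.19 cells minus that in TGR-1 cells was -0.50 ± 0.16 (SE), with an unadjusted p of 0.00622, and it did not pass after adjustment over all features (limma, adjusted p = 0.279). The gene was listed for TGR-1 cells alone, which favours such a difference.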

How the results depend on the processing

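Direction was followed for 37 member changes. These were rapamycin changes in a line that listed the gene, the 5 largest line differences in each direction, and the Slc7a5 difference. Rapamycin changes in a line that did not list the gene, some of them near 0, were not followed for direction. Of 755 recomputed values of the 37 over 21 settings, 0 reversed direction. Of these values, 678 kept their direction and side of the threshold, 25 lost their call and 52 gained one. The filter, the line's own spread, the t-test, the replicate block and leaving out an array of the other line do not alter a rapamycin change. Such values could not reverse direction, so the 0 was in part fixed in advance. In HO15.19 cells, where 5 members were called, the count was 8 with the stricter filter (detection p under 0.01 on at least 6 arrays), 12 without background correction and 12 with the authors' normalized values, and 3 with median centring and 3 with the spread of the line's own arrays. In TGR-1 cells, where 2 were called, it was 4 with the stricter filter, 6 without background correction, 6 with the authors' normalized values, 8 with array weights and 4 with the line's own spread. The methods' t-test, adjusted over all features, called 0 members in each line. With 1 array left out, the count was 3 to 6 in HO15.19 cells and 0 to 4 in TGR-1 cells. The difference between the lines called 1 member, Slc7a5, with the stricter filter (adjusted p = 0.0385), without background correction (0.0261) and with the authors' normalized values (0.0216), and 0 to 1 with 1 array left out. Deviations from the group means were correlated between arrays of the same replicate number, with r of -0.23 to 0.278 over 18 pairs, 6 over 0.1. For replicate 3, the TGR-1 control, TGR-1 rapamycin and HO15.19 rapamycin arrays had r of 0.246 to 0.278 with one another. Whether arrays of the same number were handled together was not tested. With the replicate block the difference called 1 member, Slc7a5 (adjusted p = 0.0395), and 6 were called in HO15.19 cells. The cause of these shifts was not tested.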
